A study of Homo sapiens with 10 samples.

Results

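*SMARCA4* siRNA A was compared with *SMARCA4* siRNA B to ask which genes differ between oligonucleotides directed at one target. VCaP cells were used, a line from a human prostate cancer metastasis that carries the TMPRSS2-ERG fusion. The libraries were chosen by their labels, which gave 4 of the 10 libraries of the series, 2 with siRNA A and 2 with siRNA B. The other libraries were 2 with *SMARCA1* siRNA A, 2 with *SMARCA1* siRNA C and 2 controls (genotype WT). They served as reference levels and also entered the estimate of the spread behind every standard error and p-value. Knockdown was transient, with 30 pmol siRNA by lipid transfection and RNA taken after 72 h. The siRNA and dose given to the control libraries are not stated in the sources used here, nor is any sequencing batch or date. The labels do not say whether replicates were separate cultures, so p-values measure only the spread between these libraries, which may be technical.

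*SMARCA4* (BRG1) and its paralogue *SMARCA2* (BRM) are the alternative ATPases of the SWI/SNF complexes, which move and evict nucleosomes at promoters and enhancers, and a given complex holds one or the other. An siRNA guides Argonaute to a matching mRNA, which is cut, while pairing of the short seed near the 5′ end of the guide can lower other mRNAs that carry the complementary bases in their 3′ UTR. Double-stranded RNA can also be detected by innate RNA sensors, which switch on interferon genes.

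The study lists a pair of 27-base *SMARCA4* siRNA strands, and it does not say which of these is siRNA A or siRNA B. They are shown because the site and the seed of each strand are the molecular difference between the transfections. In the first line of each pair capitals mark bases 2 to 8, the seed of the strand used whole, and in the second bases 8 to 14, the seed if Dicer trims the strand to its last 21 bases.
SMARCA4 siRNA 1#: cAAUCAUGuacuuccaacggaucuugg
SMARCA4 siRNA 1#: caaucauGUACUUCcaacggaucuugg
SMARCA4 siRNA 2#: uGGGAAGAauucuaucaagaagcucaa
SMARCA4 siRNA 2#: ugggaagAAUUCUAucaagaagcucaa
Both strands were fully complementary to the coding sequence of *SMARCA4* (chr19:10960932-11079426, plus strand, GRCh38). The site of 1# crosses the junction of exons 18 and 19 of 35, with 5 bases at chr19:11019697-11019701 and 22 bases at chr19:11021725-11021746. The site of 2# lies within exon 24, at chr19:11027813-11027839. In *SMARCA2* transcripts the best ungapped alignment matched 22 of 27 bases for either strand, with a longest run of 8 bases for 1# and 7 bases for 2#.

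Total counts were between 27752769 and 32570252 in the *SMARCA4* siRNA libraries and between 23898545 and 34667965 over all 10 libraries. Expression is given as CPM, the count relative to the library total after TMM scaling, expressed per 1e+06 counts. A count of 0 allows up to 3 counts, which was 0.0865 CPM in the deepest library and 0.126 CPM in the shallowest. Replicates differed by more than sampling noise in every group. The chi-square per gene was 38.5 for the siRNA A pair and 20.7 for the siRNA B pair. It was 5.76 for the controls, 53.8 for the *SMARCA1* siRNA A pair and 3.6 for the *SMARCA1* siRNA C pair. The test used a spread shared by all these groups, the closer pairs included. Luminal prostate markers were present throughout, since all 12 listed genes had counts in every library and their summed level was between 9310 and 11500 CPM. Differences are log2 of siRNA A over siRNA B with their standard error (SE), and genes were called at an adjusted p below 0.05 (edgeR quasi-likelihood test, Benjamini-Hochberg adjustment over all 16899 genes tested).

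Knockdown was deep with both siRNAs and deeper with siRNA B. *SMARCA4* was at 25.2 and 23.2 CPM under siRNA A, at 18.6 and 13.3 CPM under siRNA B, and at 242 and 268 CPM in the controls. The siRNA A libraries therefore kept 9.89% and 9.09% of the control mean and the siRNA B libraries 7.30% and 5.22%, without overlap. The difference of 0.60 (SE 0.15) only just passed the threshold, with an adjusted p of 0.048. It lost the call without siRNA A replicate 1 (0.54, adjusted p 0.12), without siRNA A replicate 2 (0.65, adjusted p 0.16) and without siRNA B replicate 2 (0.39, adjusted p 0.21). In bulk RNA, a smaller share of untransfected cells and less residual RNA per cell cannot be told apart. *SMARCA2* was at 134 and 147 CPM under siRNA A and at 112 and 129 CPM under siRNA B, around the 129 and 133 CPM of the controls, and was not called (0.22, SE 0.14, adjusted p 0.36).

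Of the 28 SWI/SNF subunit genes tested, *SMARCA4* included, 2 were called (7.14%, near the 6.20% of all genes tested). The other was *SMARCD3*, an accessory subunit, which was at 2.86 and 3.05 CPM under siRNA A and at 5.04 and 4.63 CPM under siRNA B (−0.71, SE 0.18, adjusted p 0.049). Of the 27 ATPases of other chromatin remodelers, 0 were called in edgeR and 0 in DESeq2, with 3 at an unadjusted p below 0.05.

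*MYC*, which encodes a transcription factor that drives growth and ribosome production, differed more than the target. It was at 87.4 and 102 CPM under siRNA A and at 42.2 and 25.8 CPM under siRNA B, beside 318 and 328 CPM in the controls. These libraries held 27% and 31.6% of the control mean with siRNA A, and 13.1% and 7.97% with siRNA B. *MYC* was 2.79-fold higher with siRNA A (log2 1.48, SE 0.19, adjusted p 0.0055), and it stayed called when any one of the 4 libraries was left out (1.18 to 1.86, highest adjusted p 0.049). The *SMARCA1* siRNA libraries lay between 164 and 188 CPM, so the siRNA B libraries were the lowest of the 10. The plot of the targeted gene, *MYC* and *SMARCA2* shows this order.

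**Figure D1:**
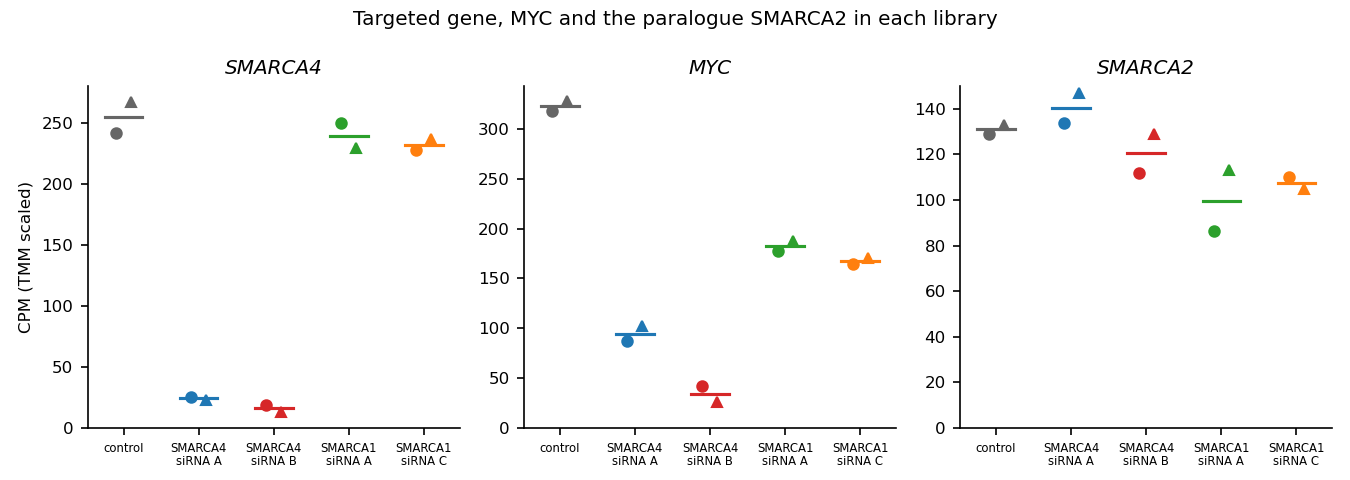
CPM of SMARCA4, MYC and SMARCA2 in each of the 10 libraries (circle, replicate 1; triangle, replicate 2; line, mean of 2), by group. MYC with siRNA B (42.2 and 25.8 CPM) lay below siRNA A (87.4 and 102 CPM), while SMARCA2 stayed near the control level with both.

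Beyond these genes, 1048 of the 16899 genes tested were called between the siRNAs (6.20%). Of these, 513 were higher with siRNA A (3.04% of genes tested) and 535 were lower (3.17%). A log2 difference of at least 1 was reached by 305 called genes, 96 of them higher and 209 lower with siRNA A, and the median size among called genes was 0.77. The siRNA A and siRNA B libraries did not overlap for any called gene, but this also held for 9575 genes overall (56.7%), so absence of overlap alone sets little apart with pairs of libraries. The fit of the 4 *SMARCA4* libraries alone called 212 genes. In the fit of all groups, the number of calls also depended on single libraries. It was 1276 without siRNA A replicate 1 (731 of them among the 1048), 48 without siRNA A replicate 2, 134 without siRNA B replicate 1 and 99 without siRNA B replicate 2. Of the 106 called genes selected for naming, 11 stayed called in all 4 of these fits, and the others each lost their call without at least 1 library. These were *MYC*, *ST3GAL5*, *CDK5R1*, *INAFM2* and *VTN*, which were higher with siRNA A, and *NIPSNAP3A*, *KLHL8*, *VANGL2*, *NWD1*, *NT5E* and *DEFB132*, which were lower.

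**Figure D2:**
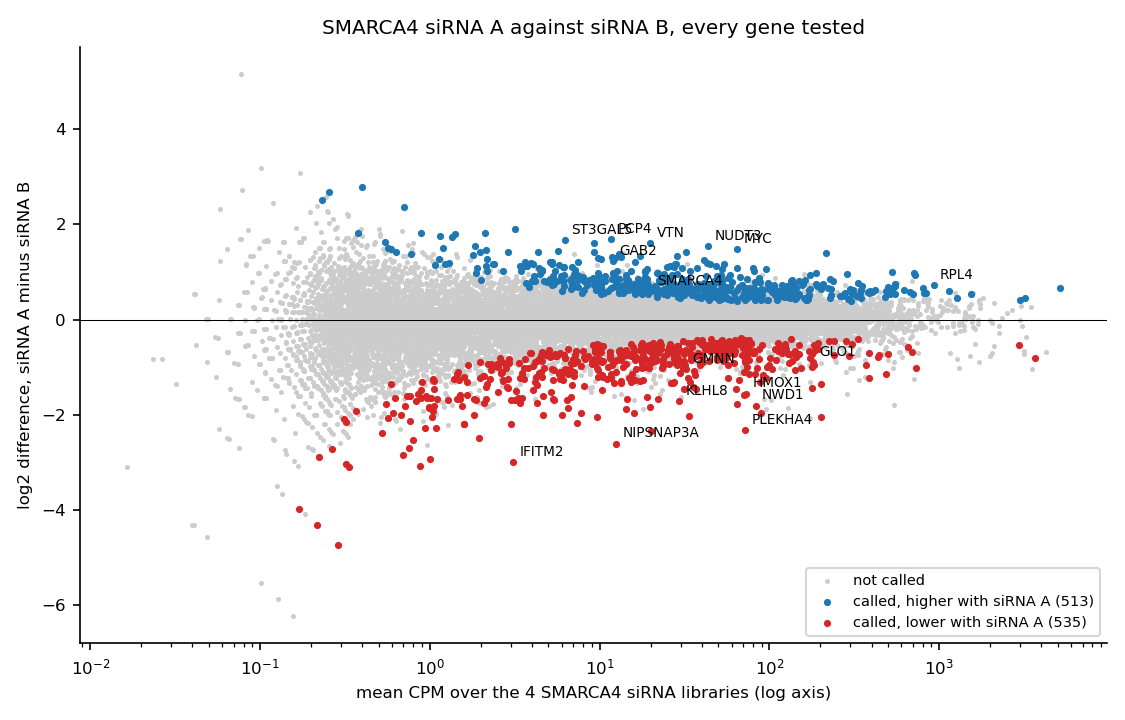
Log2 difference (siRNA A minus siRNA B) against mean CPM over the 4 SMARCA4 siRNA libraries (log axis) for all 16899 genes tested, with called genes in colour. The 513 genes called higher and the 535 called lower with siRNA A lay on both sides of a median difference of 0.01.

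The largest rises with siRNA A over siRNA B came mostly from genes of low level. *IGSF21*, a synaptic adhesion protein, was at 4.26 and 5.69 CPM under siRNA A and at 0.958 and 1.72 CPM under siRNA B (1.90, SE 0.30, adjusted p 0.012). The controls were at 4.98 and 5.68 CPM and the *SMARCA1* siRNA libraries between 0.904 and 1.38 CPM, so siRNA A alone among the siRNAs was near the controls. The same order held for *ZNF678*, a zinc finger gene, at 12.3 and 15.7 CPM under siRNA A, 4.61 and 4.60 CPM under siRNA B and 19.6 and 17.1 CPM in the controls (1.61, SE 0.36, adjusted p 0.031). *NUDT3*, a hydrolase of inositol pyrophosphates, was at 42.6 and 87.9 CPM under siRNA A, 16.6 and 28.0 CPM under siRNA B and 103 and 104 CPM in the controls (1.55, SE 0.33, adjusted p 0.026). The siRNA A replicates were far apart here, while both stayed above siRNA B. The *SMARCA1* siRNA libraries were below siRNA A for these genes too, between 3.87 and 11 CPM for *ZNF678* and between 11.5 and 34.5 CPM for *NUDT3*.

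Other rises came from levels above the controls. *VTN* encodes vitronectin, an adhesive glycoprotein of plasma and matrix. It was at 29.2 and 30.7 CPM under siRNA A, 11.2 and 8.53 CPM under siRNA B and 6.61 and 5.98 CPM in the controls (1.60, SE 0.17, adjusted p 0.0030). *PCP4*, a small calmodulin-binding protein, was at 13.8 and 22.0 CPM under siRNA A and at 5.16 and 5.96 CPM under siRNA B, with controls at 5.14 and 7.54 CPM (1.69, SE 0.25, adjusted p 0.0095). *ST3GAL5* and *NPY2R*, also among the largest rises, are described below. Further large rises were *SYT2*, a calcium sensor of vesicle release, *TRIM9*, a brain-enriched ubiquitin ligase, and *PCDHA13*, a clustered protocadherin. Their differences were 1.81, 1.76 and 1.74, at no more than 3.87 CPM in any siRNA A library. *PCDHA13* shares its last exons with the other genes of its cluster, so its counts are uncertain.

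Many of the largest falls were in genes that stood far above the controls with siRNA B. *IFITM2*, an antiviral membrane protein induced by interferon, was at 1.08 and 0.314 CPM under siRNA A and at 6.52 and 4.49 CPM under siRNA B (−3, SE 0.47, adjusted p 0.012). *PLEKHA4*, a phosphoinositide-binding protein, was at 38.6 and 9.53 CPM under siRNA A and at 145 and 95.9 CPM under siRNA B, beside 0.251 and 0.149 CPM in the controls (−2.33, SE 0.49, adjusted p 0.026). Its siRNA A replicates were far apart, and the lower siRNA B library was still above both.
*PLAAT4*, an acyltransferase induced by retinoids and interferon, differed by −2.06 (SE 0.42, adjusted p 0.023), with means of 78.3 CPM for siRNA A and 326 CPM for siRNA B. *GSDMD*, the pore-forming executor of pyroptosis, was at 0.908 and 0.283 CPM under siRNA A and at 3.93 and 2.74 CPM under siRNA B (−2.50, SE 0.44, adjusted p 0.015). *RTP4*, a chaperone of receptor transport, had 4.4 and 1.01 CPM under siRNA A and 13.4 and 10.7 CPM under siRNA B (−2.18, SE 0.45, adjusted p 0.023). In these last 3 genes, too, siRNA A replicate 2 was the lowest of the 4 libraries.

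Replicates agreed more closely for *TXNRD2*, the mitochondrial thioredoxin reductase, and *VANGL2*, a core protein of planar cell polarity. *TXNRD2* was at 1.05 and 1.10 CPM under siRNA A and at 5.69 and 4.17 CPM under siRNA B (−2.20, SE 0.37, adjusted p 0.014). *VANGL2* was at 4.23 and 3.27 CPM under siRNA A, at the 3.51 and 3.01 CPM of the controls, and at 18.2 and 12.8 CPM under siRNA B (−2.05, SE 0.20, adjusted p 0.0023). The *SMARCA1* siRNAs also gave higher *VANGL2* than siRNA A, between 11.6 and 21.1 CPM. *RUFY4*, which takes part in autophagy, and *DEFB132*, a beta-defensin, differed by −2.01 and −2.02. *NIPSNAP3A*, also among the largest falls (−2.61), is described below.

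To set the siRNAs apart, each was compared with each of the other 4 groups. A gene was called apart if it passed in the same direction in all 4 comparisons. The rule also admits genes that both *SMARCA4* siRNAs moved the same way from the controls by different amounts. With siRNA A, 170 genes were apart (1.01% of genes tested), 54 of them higher and the rest lower than in every other group. With siRNA B, 291 genes were apart (1.72%), 98 higher and 193 lower. *SMARCA4* itself and *MYC* were among those lower with siRNA B, though siRNA A also held both far below the controls. Under siRNA A, *SMARCA4* was at 9.89% and 9.09% of the control mean and *MYC* at 27% and 31.6%. The counts for siRNA A and siRNA B were 123 and 278 without siRNA A replicate 1, 14 and 24 without siRNA A replicate 2, 32 and 61 without siRNA B replicate 1, and 30 and 20 without siRNA B replicate 2.

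*NIPSNAP3A*, of a family of vesicle and mitochondrial proteins, was the clearest fall with siRNA A. It was at 4.12 and 2.92 CPM under siRNA A, at 21.4 and 21.5 CPM under siRNA B, at 14.7 and 12.6 CPM in the controls and between 10.7 and 15.1 CPM with the *SMARCA1* siRNAs. The libraries of siRNA A and siRNA B thus lay on opposite sides of the controls (−2.61, SE 0.18, adjusted p 0.00056). *KLHL8*, a substrate adaptor of a cullin ubiquitin ligase, was at 16.6 and 11 CPM under siRNA A and between 32.1 and 56.3 CPM in the other 8 libraries (−1.72, SE 0.19, adjusted p 0.0030). *EGF*, the growth factor ligand of EGFR, was at 0.908 and 0.975 CPM under siRNA A and at 2.50 and 2.21 CPM under siRNA B (−1.32, SE 0.22, adjusted p 0.014).

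Other genes apart with siRNA A at the low end were *TINAGL1*, a matrix protein, and *HSPA6*, a stress-inducible heat shock protein. *TINAGL1* was at 0.594 and 0.786 CPM under siRNA A against 1.61 and 2.84 CPM under siRNA B. *HSPA6* was at 0.0698 and 0.157 CPM under siRNA A, the first of these below the level of 3 counts, and its near-identical pseudogene makes its counts uncertain. Chosen after their values were seen, *FKBP1A*, the FK506-binding protein, was at 53.8 and 48.9 CPM under siRNA A, 114 and 113 CPM under siRNA B and 176 and 162 CPM in the controls (−1.14, SE 0.10, adjusted p 0.0019). *CDK8*, the kinase of the Mediator complex, likewise chosen, was at 16.3 and 13.6 CPM under siRNA A, 38.1 and 37.4 CPM under siRNA B and 33.0 and 34.7 CPM in the controls (−1.34, SE 0.15, adjusted p 0.0031).

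At the high end, *GAB2*, a docking protein of receptor tyrosine kinase signalling, was at 15 and 18.8 CPM under siRNA A, at 7.23 and 7.19 CPM under siRNA B and between 3.74 and 5.44 CPM in the other 6 libraries (1.23, SE 0.18, adjusted p 0.0099). *NPY2R*, a receptor of neuropeptide Y, was at 2.48 and 3.02 CPM under siRNA A and no higher than 0.947 CPM elsewhere (1.55, SE 0.27, adjusted p 0.015). *CRYM*, which binds thyroid hormone, was at 7.75 and 11.1 CPM under siRNA A and at 3.93 and 4.84 CPM under siRNA B (1.11, SE 0.27, adjusted p 0.043). For these 3 genes the siRNA B libraries were nearer to the controls than the siRNA A libraries were. *PSTPIP2*, a membrane-bending F-BAR protein, and *FAM131B* completed the 5 with differences of 1.27 and 1.21.

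With siRNA B, the clearest fall was *ST3GAL5*, the sialyltransferase that makes the ganglioside GM3. It was at 2.97 and 3.02 CPM under siRNA B, at 9.18 and 9.90 CPM under siRNA A and between 6.65 and 10.7 CPM in the other 6 libraries (1.67, SE 0.16, adjusted p 0.0019). *CDK5R1*, the p35 activator of CDK5, was at 15.9 and 16.8 CPM under siRNA B and between 33.2 and 44.6 CPM in the other 8 libraries (1.13, SE 0.12, adjusted p 0.0030). *INAFM2* was at 6.09 and 5.33 CPM under siRNA B, 14.1 and 13.8 CPM under siRNA A and 26.4 and 22.8 CPM in the controls (1.29, SE 0.14, adjusted p 0.0030). The replicates of each siRNA were close in all 3 genes, and *MYC* belonged to the same set. *ARSH*, a sulfatase, completed it at 0.309 and 0.386 CPM under siRNA B against 0.803 and 1.04 CPM under siRNA A.

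Among genes higher with siRNA B, *NWD1*, a protein with NACHT and WD repeat domains, was at 125 and 133 CPM, with siRNA A at 44.4 and 29.5 CPM and the controls at 24.3 and 24.9 CPM (−1.81, SE 0.17, adjusted p 0.0019). *NT5E* encodes CD73, the cell surface enzyme that makes adenosine from AMP. It was at 8.01 and 12.5 CPM under siRNA B and between 1.01 and 3.11 CPM in the other 8 libraries (−1.87, SE 0.25, adjusted p 0.0060). *SLC2A12*, a glucose transporter, was at 19.9 and 23.8 CPM under siRNA B and between 4.16 and 9.49 CPM elsewhere (−1.32, SE 0.22, adjusted p 0.014). *HMOX1*, heme oxygenase 1, was at 49.4 and 24.8 CPM under siRNA A, 148 and 70.7 CPM under siRNA B and 2.43 and 1.86 CPM in the controls (−1.56, SE 0.39, adjusted p 0.044). *DEFB132* was at 61.4 and 46.8 CPM under siRNA B, against 18.5 and 8.11 CPM under siRNA A.

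**Figure D3:**
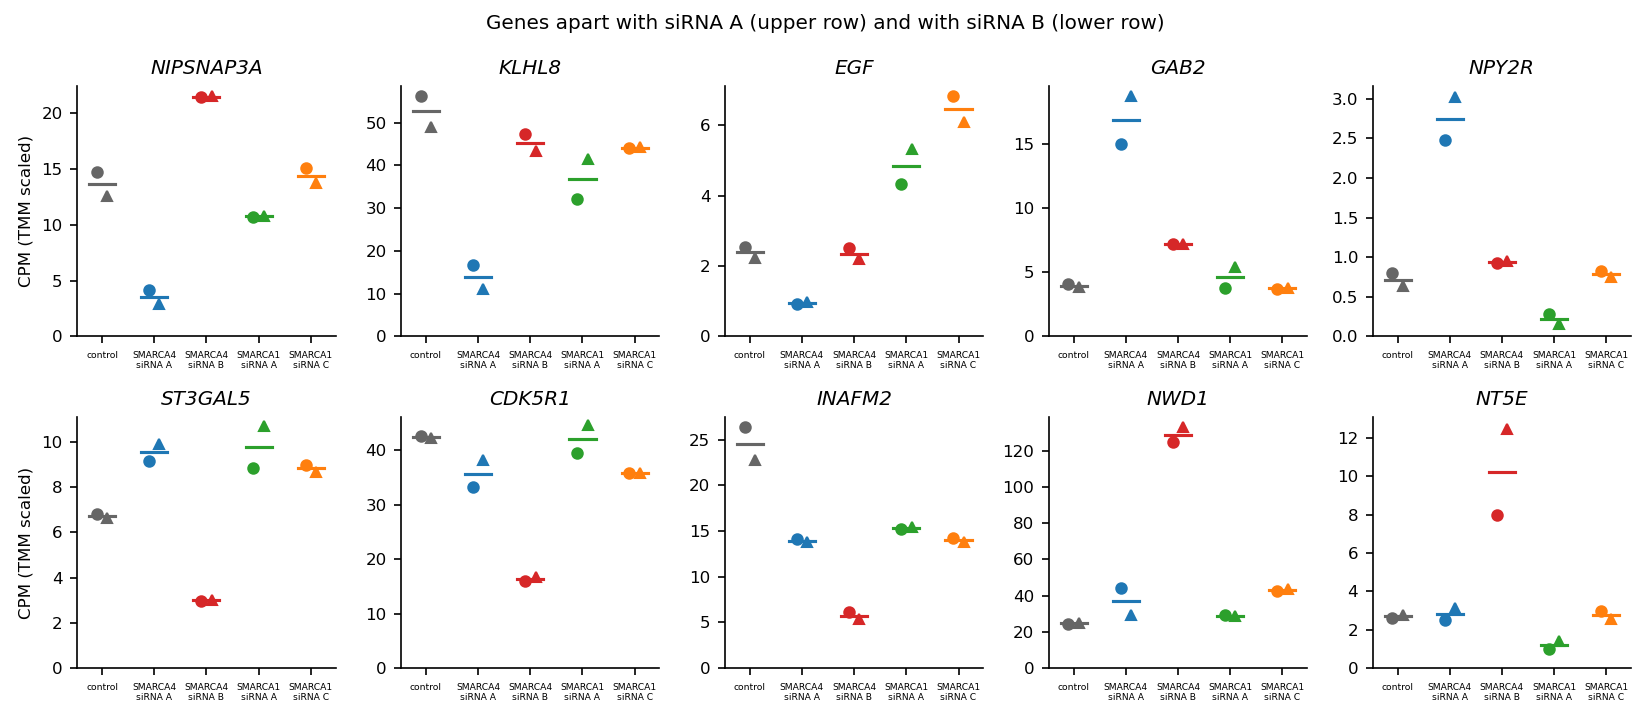
CPM in each library for 5 protein-coding genes apart with siRNA A (upper row) and 5 apart with siRNA B (lower row; circle, replicate 1; triangle, replicate 2; line, mean of 2). NIPSNAP3A was at 4.12 and 2.92 CPM under siRNA A and at 21.4 and 21.5 CPM under siRNA B, and ST3GAL5 showed the opposite order.

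Seed complements were searched in the 3′ UTR of the canonical transcript of 13633 tested genes (GENCODE v44), of which 6.87% were called. The complement of bases 8 to 14 of 2# (TAGAATT) was in the 3′ UTR of 2422 of these genes (17.8%). Their median difference was 0.10, against −0.01 for the 11211 genes without it. With the match 122 genes (5.04%) were called higher and 41 (1.69%) lower with siRNA A, and without it 337 (3.01%) and 436 (3.89%). The same 7 bases read on the other strand (AATTCTA), which is not complementary to the strand, gave a median of 0.08 in 2188 genes, with 101 (4.62%) higher and 55 (2.51%) lower. Both sets had long 3′ UTRs, with a median of 3261 and 3228 bases, against 1038 bases in genes without TAGAATT. These values are descriptive.

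The other complements separated the genes less. For bases 2 to 8 of 1# (CATGATT) the median difference was 0.07 in 1852 genes with a match and 0.00 without, and for bases 8 to 14 of 1# (GAAGTAC) it was 0.03 in 908 genes and 0.01 without. For bases 2 to 8 of 2# (TCTTCCC) it was 0.04 in 2925 genes and 0.01 without. No median with a match lay below that without one, and all 4 sets had longer 3′ UTRs than the rest. Among the 110 genes apart and lower with siRNA A that had a 3′ UTR, GAAGTAC was held by 12 (10.9%), against 6.66% of all tested, and TAGAATT by 15 (13.6%), against 17.8%. GAAGTAC was also held by 6 of the 54 genes apart and higher with siRNA A (11.1%). Among the 177 genes apart and lower with siRNA B, GAAGTAC was held by 15 (8.47%), TAGAATT by 46 (26.0%) and TCTTCCC by 47 (26.6%, against 21.5% of all tested). A similar share of the 54 genes apart and higher with siRNA A, 14 (25.9%), held TCTTCCC. Neither other-strand bases nor 3′ UTR length were examined in the sets of genes apart.

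Matches of at least 15 contiguous bases were few. For 2# the only gene was *SMARCA4*. For 1# there were 3 further genes with 15 bases each, *CMTR2*, an mRNA cap methyltransferase, *SLC35F1*, a putative solute carrier, and *TLN2*, a talin that links integrins to actin. None was called between the siRNAs. *CMTR2* was at 33.4 and 29.6 CPM under siRNA A and at 27.4 and 27.2 CPM under siRNA B (0.20, SE 0.15, adjusted p 0.46). *TLN2*, whose match is in the 3′ UTR, was at 76.2 and 96.7 CPM under siRNA A and at 80.8 and 83.8 CPM under siRNA B (0.07, SE 0.15, adjusted p 0.82). *SLC35F1* was below 1 CPM in all 4 libraries (0.62, SE 0.38, adjusted p 0.35). Of the 13 genes of the RNA interference machinery, 9 were higher with siRNA A by sign, with a median of 0.14. *TNRC6C*, a partner of Argonaute in silencing, was the one called (7.69%, near the 6.20% of all genes). It was at 26.1 and 25 CPM under siRNA A and at 42.3 and 45.2 CPM under siRNA B (−0.78, SE 0.19, adjusted p 0.042).

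Interferon genes were above the controls with both siRNAs, and the levels with siRNA A were lower and unequal between its replicates. The 59 interferon-stimulated effectors tested, antiviral proteins made in response to interferon, took 4.120% of all counts in siRNA A replicate 1 (exact 95% interval 4.113% to 4.128%) and 2.167% in replicate 2 (2.162% to 2.172%). They took 5.552% and 4.892% with siRNA B, and 0.092% and 0.095% in the controls. These intervals cover counting error only, which is far smaller than the gap between replicates. The *SMARCA1* siRNA libraries held between 3.170% and 5.705%, so siRNA A replicate 2 was the lowest of the 8 knockdown libraries.

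Of these 59 effectors, 58 had a negative difference, with a median of −0.72 against 0.01 for all genes tested. The test called 4 (6.78%), all lower with siRNA A, a share close to the 6.20% of all genes. This count depended on the fit, with 24 called in DESeq2, 11 with upper quartile scaling, 11 with library totals and 53 without a filter, all lower with siRNA A. These were *IFITM2* and *RTP4* as above, *SHFL*, an inhibitor of viral frameshifting, and *ZNFX1*, a sensor helicase. *SHFL* was at 57.5 and 32.6 CPM under siRNA A and at 101 and 92.2 CPM under siRNA B (−1.10, SE 0.22, adjusted p 0.023). *ZNFX1* was at 619 and 341 CPM under siRNA A and at 974 and 976 CPM under siRNA B (−1.02, SE 0.23, adjusted p 0.032).
More abundant effectors did not pass. *IFIT1*, which binds viral RNA ends, was at 3310 and 1470 CPM under siRNA A and at 4430 and 3520 CPM under siRNA B (−0.73, SE 0.29, adjusted p 0.15). *MX1*, a dynamin-like antiviral GTPase, was at 4200 and 2330 CPM under siRNA A and at 5520 and 4950 CPM under siRNA B (−0.68, SE 0.22, adjusted p 0.088). *ISG15*, a ubiquitin-like modifier, was at 3020 and 1580 CPM under siRNA A and at 5370 and 4170 CPM under siRNA B (−1.05, SE 0.28, adjusted p 0.053). In each of these the siRNA B libraries were above both siRNA A libraries, and siRNA A replicate 2 was the lowest of the 4.

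Replicate by replicate, 58 of the 59 effectors were higher in siRNA A replicate 1 than in replicate 2, by a median of 1.11 on the log2 scale. The siRNA B pair was closer, with a median of 0.26. Against the mean of the siRNA B libraries, the effectors had a median of −0.30 in siRNA A replicate 1 and −1.46 in replicate 2. The number called was accordingly 52 without siRNA A replicate 1 and 1 without siRNA A replicate 2, and it was 0 and 1 without siRNA B replicate 1 and replicate 2.

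Upstream genes followed the same order. All 6 interferon ligands tested had a negative difference (median −1.34), and 2 were called (33.3%, against 6.20% of all genes, and 5 in DESeq2). *IFNL2*, a type III interferon, was at 13.9 and 6.29 CPM under siRNA A and at 21.2 and 28.1 CPM under siRNA B (−1.29, SE 0.30, adjusted p 0.036), and *IFNL4* was at 2.06 and 0.786 CPM against 4.39 and 4.77 CPM (−1.70, SE 0.37, adjusted p 0.031). The lambda interferon genes are near-identical neighbours, so counts may be divided among them. *IFNB1*, the type I interferon made first in infected cells, was at 3.39 and 1.35 CPM under siRNA A and at 5.50 and 6.60 CPM under siRNA B, just short of the threshold (−1.36, SE 0.35, adjusted p 0.052). Without siRNA A replicate 2, or without either siRNA B library, 0 ligands were called, and without siRNA A replicate 1 there were 5.

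Among 18 RNA sensors and adaptors, 14 had a negative difference. Of the 18, 2 were called (11.1%, against 6.20% of all genes, and 6 in DESeq2), both lower with siRNA A. *IRF3*, the transcription factor that the sensors activate, was at 46.5 and 39.8 CPM under siRNA A, close to the 36.4 and 40.9 CPM of the controls, and at 75.3 and 66.9 CPM under siRNA B (−0.72, SE 0.17, adjusted p 0.038). *TICAM1*, the adaptor of the endosomal sensor TLR3, was at 52.3 and 40.1 CPM under siRNA A and at 73 and 68 CPM under siRNA B (−0.61, SE 0.15, adjusted p 0.044). Of 19 interferon receptors and JAK-STAT genes, *USP18*, a brake on interferon receptor signalling, and *STAT3* were called (10.5%), both lower with siRNA A (−1.22 and −0.54). *USP18* was at 306 and 156 CPM under siRNA A and at 572 and 506 CPM under siRNA B. Without siRNA A replicate 1, 7 sensors and 8 receptor or JAK-STAT genes were called, and 0 of either without any one of the other 3 libraries.

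Antigen presentation by MHC class I, which interferon raises, showed a median of −1.07 over 20 genes, of which 18 were negative and 3 called. The called share was above the 6.20% of all genes. *TAP1*, a subunit of the peptide transporter, was at 414 and 189 CPM under siRNA A and at 728 and 604 CPM under siRNA B (−1.14, SE 0.28, adjusted p 0.044). *TAPBPL*, a peptide editor, and *ERAP1*, a peptide-trimming protease, were the others (−1.34 and −1.04). Calls numbered 11 in DESeq2, 18 without siRNA A replicate 1 and 0 without siRNA A replicate 2 or either siRNA B library. In the NF-kappaB and chemokine list, 2 of 28 genes were called (7.14%, near the 6.20% of all genes), *CCL5*, a lymphocyte attractant, and *CXCL16*. *CCL5* was at 10.2 and 2.86 CPM under siRNA A and at 28.7 and 22.0 CPM under siRNA B (−1.97, SE 0.42, adjusted p 0.026).

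Markers of other cell types moved beside these genes in part. *KRT14*, a basal keratin, was at 57.5 and 36.9 CPM under siRNA A, 108 and 102 CPM under siRNA B and 3.05 and 3.57 CPM in the controls (−1.15, SE 0.20, adjusted p 0.015). The summed level of the 4 basal markers, 2 of which had counts in every library, was 63.2 and 38.3 CPM under siRNA A and 114 and 103 CPM under siRNA B. The 5 fibroblast markers summed to 25.4 and 18.0 CPM under siRNA A and to 34.9 and 32.7 CPM under siRNA B, with 0 of 4 tested genes called in edgeR, 2 at an unadjusted p below 0.05 and 1 called in DESeq2. The 4 endothelial markers summed to between 2.39 and 3.26 CPM in these libraries. Of 5 leukocyte markers, 1 had no count in any library and *LYZ* alone was tested. *LYZ* was at 15.4 and 4.90 CPM under siRNA A and at 6.03 and 1.68 CPM under siRNA B (1.38, SE 0.59, adjusted p 0.19), against the direction of the interferon genes. The part of these markers in the results was not tested.

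**Figure D4:**
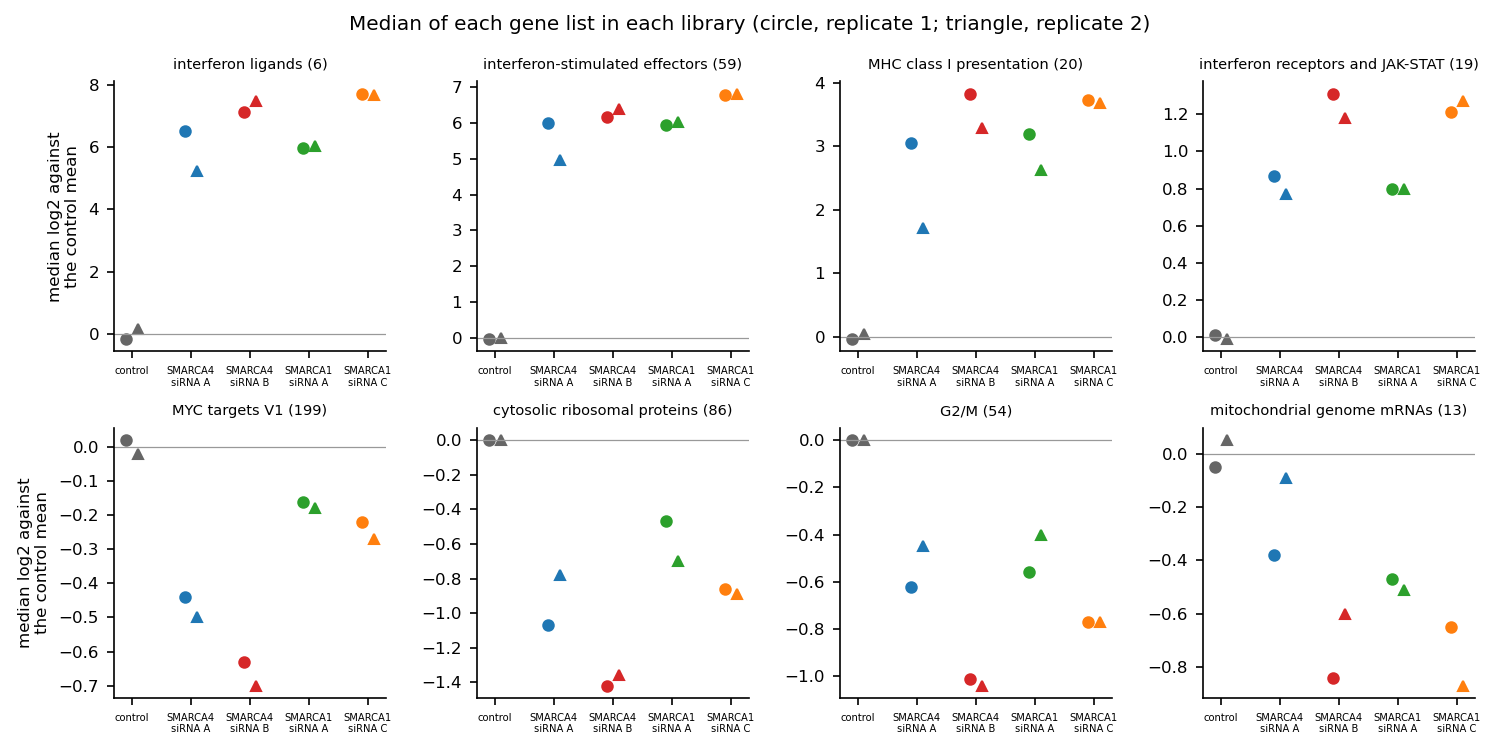
Median log2 level of 8 gene lists in each library against the control mean (genes tested in brackets), by group. The siRNA A triangle, replicate 2, lay below replicate 1 for the interferon lists and above it for ribosomal proteins, G2/M and mitochondrial mRNAs.

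Ribosomal protein genes were lower with siRNA B than with siRNA A. Of 86 cytosolic ribosomal protein genes, 29 were called (33.7%, against 6.20% of all genes), all higher with siRNA A, and 83 had a positive difference, with a median of 0.46. DESeq2 called 49, upper quartile scaling gave 17, the 4 *SMARCA4* libraries alone 2 and a minimum fold of 1.2 gave 3, all higher with siRNA A. Their share of all counts was 3.227% and 4.187% with siRNA A, 2.617% and 2.806% with siRNA B and 7.127% and 7.248% in the controls, so both siRNAs stood well below the controls. *RPL4*, of the large subunit, was at 1030 and 1290 CPM under siRNA A, 723 and 678 CPM under siRNA B and 2170 and 2120 CPM in the controls (0.73, SE 0.13, adjusted p 0.015). *RPS13*, of the small subunit, was at 132 and 161 CPM under siRNA A and at 92.5 and 86.1 CPM under siRNA B (0.72, SE 0.13, adjusted p 0.018). *RPS21* showed the same size of difference (0.73, SE 0.17, adjusted p 0.034). Many ribosomal protein genes have processed pseudogenes, with which reads may be shared. With one library left out, 53 were called without siRNA A replicate 1 and 0 without each of the other 3 libraries, while the median stayed between 0.30 and 0.61.

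MYC targets V1, a list of 199 genes bound or raised by MYC, had 24 called genes (12.1%, against 6.20% of all genes). Of these, 21 were higher and 3 lower with siRNA A, and the list median was 0.20. *EEF1B2*, a translation elongation factor, was at 108 and 137 CPM under siRNA A, 72.9 and 71.2 CPM under siRNA B and 289 and 267 CPM in the controls (0.77, SE 0.13, adjusted p 0.015). *PTGES3*, the HSP90 co-chaperone p23, was at 430 and 412 CPM under siRNA A and at 273 and 226 CPM under siRNA B (0.76, SE 0.12, adjusted p 0.014). The 3 that went the other way were *GLO1*, which detoxifies methylglyoxal, *CCNA2*, cyclin A2, and *PRPF31*, a splicing factor, and all 3 were apart and lower with siRNA A. *GLO1* was at 138 and 115 CPM under siRNA A, 244 and 225 CPM under siRNA B and 432 and 363 CPM in the controls (−0.89, SE 0.13, adjusted p 0.0093). *RPL14*, *RPL22*, *RPLP0*, *RPS2*, *RPS3* and *RPS6* belong to this list and to the ribosomal list. Without siRNA A replicate 2 the list had 0 called genes, without siRNA B replicate 1 it had 2, both higher with siRNA A, and without siRNA B replicate 2 it had 1, which was lower. In the fit of the 4 *SMARCA4* libraries alone it had 2, both lower with siRNA A, while the median was 0.18.

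MYC targets V2, 57 genes largely of the nucleolus, had 49 positive differences and a median of 0.29, but 2 called genes (3.51%, below the 6.20% of all genes). *NDUFAF4*, an assembly factor of complex I, was at 15.3 and 15.2 CPM under siRNA A, 8.31 and 8.53 CPM under siRNA B and 29.3 and 24.2 CPM in the controls (0.86, SE 0.13, adjusted p 0.012). *EXOSC5*, of the RNA exosome, was at 10.8 and 11.5 CPM under siRNA A and at 6.92 and 5.54 CPM under siRNA B (0.84, SE 0.16, adjusted p 0.019). The medians of both lists were positive in every alternative run. Of the 13 genes of the MYC dimer network tested, *MYC* alone was called (7.69%, near the 6.20% of all genes).

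Nucleotide synthesis genes had 5 of 24 called (20.8%, against 6.20% of all genes), all higher with siRNA A. Among them were *PFAS*, *ADSL* and *ADSS2* of the purine pathway (0.85, 0.83 and 0.75). *PFAS* was at 16.5 and 17.0 CPM under siRNA A, 9.67 and 8.88 CPM under siRNA B and 26.1 and 25.6 CPM in the controls. Some host genes of small nucleolar RNAs, noncoding transcripts whose introns hold snoRNAs, were picked after their values were seen. Host genes were not counted as a class, so those given here do not stand for it. *SNHG3* was at 24.5 and 24.4 CPM under siRNA A, 13.2 and 11.3 CPM under siRNA B and 63.8 and 57.6 CPM in the controls (0.99, SE 0.12, adjusted p 0.0046). *GAS5* was at 56.9 and 74.4 CPM under siRNA A and at 37.7 and 36.9 CPM under siRNA B (0.82, SE 0.14, adjusted p 0.015). *DANCR*, another host gene, was at 12.5 and 21.2 CPM under siRNA A, 5.97 and 7.54 CPM under siRNA B and 97.5 and 95.9 CPM in the controls (1.32, SE 0.22, adjusted p 0.014).

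Cell cycle genes were described by phase, without a test between phases. Of 54 G2/M genes, expressed as cells prepare for and pass mitosis, 14 were called (25.9%, against 6.20% of all genes, and 23 in DESeq2). All 14 were higher with siRNA A, and the list median was 0.46. *CCNA2*, which is in the MYC list above and not in this one, was lower with siRNA A (−0.64). *HMMR*, a spindle protein, was at 24.9 and 32.9 CPM under siRNA A, 14.1 and 15.2 CPM under siRNA B and 57.9 and 56.3 CPM in the controls (0.98, SE 0.18, adjusted p 0.017). *NCAPD2*, a condensin subunit, was at 181 and 200 CPM under siRNA A and at 115 and 105 CPM under siRNA B (0.80, SE 0.12, adjusted p 0.0093). *NUF2*, of the kinetochore, differed by 0.76 (SE 0.15, adjusted p 0.022).
The 43 S phase genes had a median of 0.09 and 2 calls in opposite directions (4.65%, below the 6.20% of all genes). *BLM*, a DNA helicase, was higher with siRNA A (0.55), and *GMNN*, geminin, which prevents origins from firing again, was lower. *GMNN* was at 22.4 and 19.7 CPM under siRNA A, 46.9 and 40.1 CPM under siRNA B and 53 and 55.8 CPM in the controls (−1.05, SE 0.13, adjusted p 0.0048). Of 21 genes listed as G1 cyclins, CDKs and inhibitors, 15 had a positive difference, with a median of 0.10. The 3 called (14.3%, against 6.20% of all genes) went both ways. The CDK inhibitors *CDKN2C* and *CDKN2D* were lower with siRNA A (−0.74 each), against the sign of most of the list. *E2F3*, an activator of G1 to S genes, was higher (0.65). Without siRNA A replicate 2 or siRNA B replicate 2, 0 G2/M genes were called, and 1 without siRNA B replicate 1, with medians between 0.32 and 0.58 over the 4 fits.

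Of 13 mRNAs of the mitochondrial genome, all were higher with siRNA A by sign, with a median of 0.46. Of these, 5 were called (38.5%, against 6.20% of all genes, and 9 in DESeq2). *MT-ND3*, of complex I, was at 108 and 153 CPM under siRNA A, 52.3 and 72.2 CPM under siRNA B and 247 and 192 CPM in the controls (1.07, SE 0.20, adjusted p 0.020). *MT-CO3*, of cytochrome oxidase, was at 718 and 1170 CPM under siRNA A and at 379 and 580 CPM under siRNA B (0.97, SE 0.23, adjusted p 0.036). In contrast, of 74 nuclear respiratory chain genes 1 was called (1.35%), *ATP5MC1* (0.71), with a median of 0.08. Of 76 mitochondrial ribosomal protein genes, 54 had a positive difference, with a median of 0.16, and 4 were called (5.26%, near the 6.20% of all genes). These were *MRPL3*, which was higher with siRNA A (0.40), and *MRPL15*, *MRPL40* and *MRPL35*, which were lower (−0.61, −0.59 and −0.55). Without siRNA A replicate 1, 8 mitochondrial mRNAs were called, and 0 without any one of the other 3 libraries.

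Of 16 endoplasmic reticulum chaperones, 13 had a positive difference and 3 were called (18.8%, against 6.20% of all genes). These were *HYOU1*, *MANF* and *HSP90B1*, all higher with siRNA A (0.70, 0.69 and 0.54). *HYOU1* was at 705 and 662 CPM under siRNA A, 484 and 359 CPM under siRNA B and 506 and 514 CPM in the controls. Of 27 genes of the ATF4 stress response, 15 had a negative and 12 a positive difference, with a median of −0.11. The 3 called (11.1%) were lower with siRNA A, *NUPR1*, *CEBPB* and *SESN2* (−1.06, −0.77 and −0.64), the last a p53 target as well. *NUPR1*, a stress-induced chromatin protein, was at 113 and 70.3 CPM under siRNA A, 208 and 175 CPM under siRNA B and 30.6 and 35.2 CPM in the controls. *BTG2*, an antiproliferative p53 target, was at 61.8 and 53.2 CPM under siRNA A and at 106 and 80.9 CPM under siRNA B (−0.70, SE 0.15, adjusted p 0.024). *XPC*, of nucleotide excision repair, was also called (−0.53), which made 3 of 23 p53 targets (13.0%).

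Androgen-regulated genes had 6 of 29 called (20.7%, against 6.20% of all genes), 2 higher and 4 lower with siRNA A. Their median was 0.04 and lay between −0.06 and 0.08 over the alternatives. *ALDH1A3*, which makes retinoic acid, was at 18.0 and 19.2 CPM under siRNA A, 35.1 and 46.6 CPM under siRNA B and 33.7 and 31.2 CPM in the controls (−1.13, SE 0.15, adjusted p 0.0056). *KLK2*, a prostate kallikrein, was at 2340 and 2500 CPM under siRNA A and at 3270 and 3740 CPM under siRNA B (−0.53, SE 0.13, adjusted p 0.044). *TMEFF2* and *HPGD* were also lower (−0.75 and −0.70), and *NDRG1* and *ELL2* were higher (0.46 and 0.58). Of the 12 luminal markers, 8 had a negative and 4 a positive difference, with a median of −0.07, and *FOLH1*, *KLK2* and *CDH1* were called lower. *FOLH1*, the prostate membrane antigen, was at 94.9 and 117 CPM under siRNA A, 154 and 209 CPM under siRNA B and 254 and 249 CPM in the controls (−0.78, SE 0.15, adjusted p 0.021). Of 16 lineage and ETS factors, 0 were called in edgeR, 4 were at an unadjusted p below 0.05 and 1 was called in DESeq2.

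The remaining lists gave few calls. *EGR1*, an immediate early factor, was lower with siRNA A (30.6 and 23.5 CPM against 59.0 and 42.7 CPM). It was the only call among 23 such factors (4.35%, below the 6.20% of all genes). Replication-dependent histones had 3 of 51 called (5.88%, near the 6.20% of all genes), all lower with siRNA A, with a median of −0.45. These were *H2AC19*, *H4C14* and *H2AC13*, whose copies are near-identical, so their counts are uncertain. Zinc finger genes had 20 of 481 called (4.16%, below the 6.20% of all genes), 18 of them higher with siRNA A, with a median of 0.09. In the epithelial and mesenchymal list 2 of 20 were called, *CDH1*, E-cadherin, at 610 and 443 CPM under siRNA A and 827 and 745 CPM under siRNA B (−0.58, SE 0.15, adjusted p 0.049), and *VIM*, vimentin, at 0 and 0.440 CPM against 1.73 and 1.82 CPM. Cholesterol genes had 3 of 25 called, of which *MSMO1* was lower and *INSIG1* higher with siRNA A (−0.61 and 0.54). *FADS2*, *PFKM*, *EZH2* and *INSM1* were the single calls among 14 fatty acid, 21 glycolysis, 26 silencing and 10 neuroendocrine genes (−0.62, 0.54, 0.52 and 0.97). *CYCS*, cytochrome c, and *GSDMD* were the calls among 34 cell death genes (5.88%). Lists from nucleotide synthesis to cell death had no more than 1 call each without siRNA A replicate 2, and with each library left out in turn *EGR1*, *CDH1*, *VIM* and the histones each lost their call in at least 1 of these fits.

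**Figure D5:**
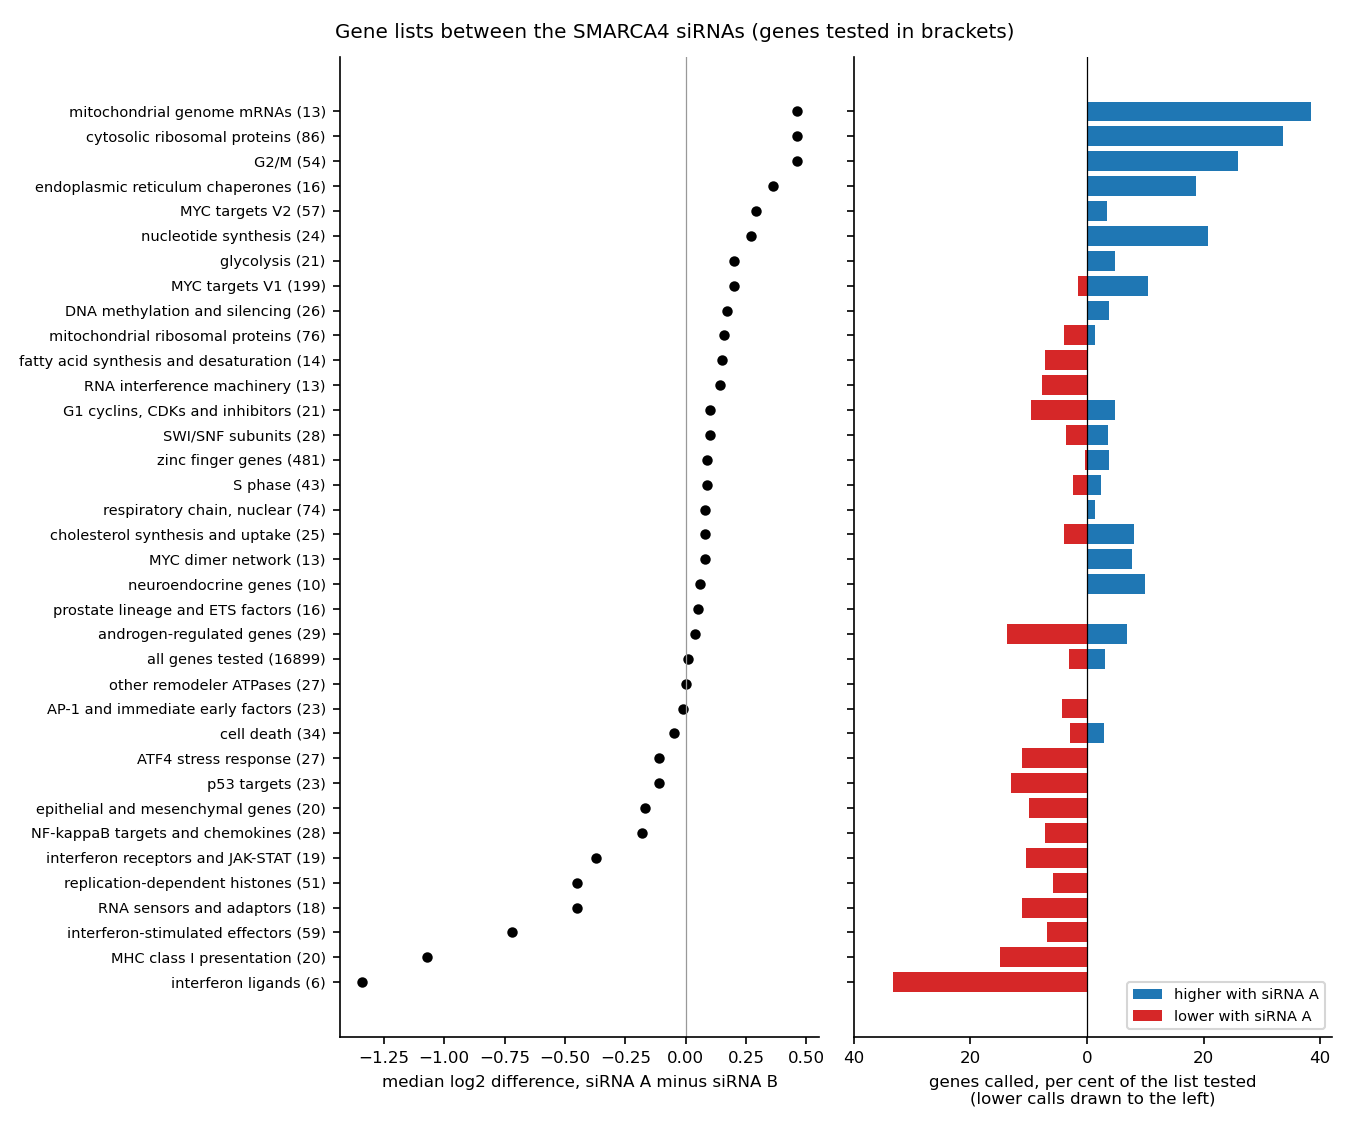
Median log2 difference (siRNA A minus siRNA B, left) and share of genes called higher or lower with siRNA A (right, in per cent) for each gene list, with the number of genes tested in brackets. Mitochondrial mRNAs, ribosomal proteins and G2/M genes were at 0.46, and interferon ligands were lowest at −1.34.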

How the data were processed

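RNA of VCaP cells was sequenced in 10 libraries (2 each for *SMARCA4* siRNA A and B, *SMARCA1* siRNA A and C, and control), grouped by the labels. Per the labels, polyadenylated RNA and a directional kit were used. The authors aligned reads to hg38 with HISAT2 2.1.0 and counted them per gene with featureCounts 1.5.2. The authors deposited unnormalized counts for 59386 genes, and the GENCODE release is not given in the sources used here. Positions are those of the count files. Biotypes and 3′ UTRs came from GENCODE v44, where 39004 symbols matched and 411 matched as older names.

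From the counts, genes were kept by filterByExpr (minimum count 10, minimum total 15), scaled by TMM and fitted with edgeR 4.0.16 in R 4.3.3 (glmQLFit, glmQLFTest) to all 10 libraries as 5 groups, which share one estimate of the spread. P-values are two-sided and adjusted by the Benjamini-Hochberg method. SE is the absolute log2 difference divided by the square root of F. The members, gene lists and tests were chosen with earlier results of these data known. Lists were written out from general knowledge or by symbol pattern, with no collection at hand to compare them with, and are described without a set test. MYC targets are named after such collections.

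The genes named are *SMARCA4*, *SMARCA2*, *MYC*, the 10 largest rises and falls among protein-coding calls at a mean of at least 1 CPM without overlap, the 5 protein-coding genes of each direction most apart with each siRNA, and the 3 largest calls of each list. *IFIT1*, *MX1*, *ISG15*, *ZNFX1*, *IFNB1*, *LYZ*, *CCNA2*, *PRPF31*, *NDRG1*, *ELL2*, *MRPL3*, the ribosomal protein genes shared by both lists and the genes so described in the text were added after their values were seen. List medians per library use log2 with a prior count of 2, and replicate differences log2 of CPM plus 0.1. The fit was tested on simulated data. Alternatives were DESeq2 1.42.0, 3 other scalings, 2 other filters, the replicate number as a block, fewer libraries, a minimum fold of 1.2 and each *SMARCA4* library left out. Some results are not reported here.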

Additional observations from a re-analysis of the deposited data

How the results depend on the processing

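The *MYC* difference kept its direction and call in 14 of 15 alternatives (1.18 to 1.86) and lost the call in the fit of the 4 *SMARCA4* libraries alone (1.47, adjusted p 0.053). The *SMARCA4* difference, between 0.39 and 0.84 over all alternatives, fits without a library included, lost its call in that fit (0.58, adjusted p 0.12), with a minimum fold of 1.2 (0.60, adjusted p 0.15) and in 3 of 4 fits without a library.

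The count of genes called was 1674 with DESeq2, 2352 without a filter, 212 with the 4 libraries alone, 1759 with these and the controls and 285 with a minimum fold of 1.2, and 48 to 1276 with a library left out. Of the 1048 called genes, DESeq2 shared 1003 and the 4 libraries alone 194. Other scalings gave 1075 to 1124, with the median of all genes between −0.01 and 0.01. Of the called genes named, 0 changed sign in any alternative run. The median changed sign in 8 of 40 lists, each within 0.11 of 0 as reported, among them the ATF4 response (−0.27 to 0.06) and immediate early factors (−0.41 to 0.19). Of 107 named genes, 20 lost their call without siRNA A replicate 1, 92 without siRNA A replicate 2, 81 without siRNA B replicate 1 and 85 without siRNA B replicate 2.

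For the effectors, 24 were called with DESeq2, 11 with upper quartile scaling, 11 with library totals, 53 without a filter, 10 at a minimum count of 50, 0 with the 4 libraries, 11 with the controls added and 2 with the minimum fold, and 0 to 52 with a library left out. For MYC targets V1 there were 2 with the 4 libraries, both lower with siRNA A against 21 higher and 3 lower in the reported fit, and 4 with the minimum fold (0 to 24 with a library left out, the 1 without siRNA B replicate 2 also lower). For V2 there were 10 with DESeq2, 12 without a filter, 1 with the 4 libraries, 11 with the controls added and 1 with the minimum fold (0 to 4 with a library left out). Genes apart with siRNA A numbered 46 with the minimum fold and 20 at a log2 difference of at least 1 from every group (14 to 123 with a library left out). Those apart with siRNA B numbered 466 without a filter, 74 with the minimum fold and 40 at that difference (20 to 278). Except where fewer genes or libraries were used, the cause of these shifts was not tested.

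The replicate numbers do not pair the libraries by any label, and only 2 numbers exist. Deviations of same-numbered siRNA A and siRNA B libraries had a correlation of 0.36. With the replicate block in the 10-library fit, 1301 genes were called, 5 of MYC targets V2 and 19 effectors. With the block in the 4-library fit there were 3873 genes, 70 of V1, 26 of V2 and 41 effectors. With 2 libraries a side and replicates of siRNA A that differ in interferon genes, a call near the threshold rests on single libraries.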
